A study of Homo sapiens with 11 samples.

Results

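Cholesterol synthesis, uptake and export were followed through 32 genes in xenograft tumours of mice given vehicle or evexomostat. The 32 genes were chosen by symbol from the 28152 symbols of the deposited count table, and all 32 were present and passed the count filter. They comprise 8 enzymes of the mevalonate pathway, 11 enzymes from squalene to cholesterol, 3 genes that control the transcription factor SREBP2, 5 genes of cholesterol transport and storage, and 5 genes of the liver X receptors (LXR) and cholesterol export. Tumours grew from cells labelled BT474, a human breast cancer line described in the labels as HR+/Her2+, injected into a mammary fat pad of female athymic nude mice that carried a slow-release pellet (0.72 mg estradiol, 90 days). All tumours therefore had estradiol, exceeded 95 cubic millimetres at enrolment and are labelled day 33. Vehicle was 5% mannitol in water, and evexomostat (SDX-7320), an inhibitor of methionine aminopeptidase 2 (MetAP2), was given at 12 mpk in the same solution, each under the skin every 4 days. There were 6 vehicle libraries (replicates 001 and 003 to 007) and 5 evexomostat libraries (replicates 002 to 005 and 007). The labels number the libraries without tying them to animals, so p-values measure the spread between these samples. The host animals lack mature T cells.

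Cells make cholesterol from acetyl-CoA through mevalonate, isoprenoids, squalene and lanosterol. When sterols run low in the endoplasmic reticulum, SCAP carries SREBP2 to the Golgi, where it is cut, and the released factor switches on the synthesis genes. When sterols are plentiful, INSIG proteins hold SCAP back, and oxysterols activate LXR, which raises the exporters ABCA1 and ABCG1 and the ligase MYLIP. The synthesis genes and the LXR targets are thus known to respond to sterol supply in opposite directions.

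Library totals ranged from 22808033 to 39249329 counts, and no gene of the 32 had fewer than 72 counts in any library. Vehicle replicate 001 stood apart: the 100 most abundant genes took up 23.9% of the library, while the range elsewhere was 16.2% to 17.9%. Its share of ribosomal protein genes was 13.5%, compared with 4.57% to 6.55% for the remaining vehicle tumours and 6.68% to 8.24% under evexomostat. Of 12 genes fixed as markers of the labelled line, ESR1 had 1 to 17 counts per library, PGR 0 to 5, GRB7 3 to 18 and CDH1 4 to 43, while KRT8 averaged 333 CPM (counts scaled to library size with TMM factors). ERBB2 was at 26.7 to 66.5 CPM, and STARD3, a cholesterol transport gene that lies beside ERBB2 and GRB7 and is amplified with them in HER2-positive tumours, was at 39.5 to 46.1 CPM. Of the remaining markers, KRT18 averaged 149 CPM. EPCAM had 9 to 149 counts per library, KRT19 0 to 46, FOXA1 16 to 71 and GATA3 114 to 264. The levels of ESR1, PGR, GRB7, CDH1 and ERBB2 go against the label, while those of KRT8 and KRT18 do not. The tumours are called here by their labels only. Lists of host genes had low summed levels in the case of adipocytes (1.92 to 8.58 CPM under vehicle and 1.34 to 4.30 under evexomostat, ADIPOQ at 0 counts in every library) and endothelium (10.5 to 22.4 and 9.92 to 14.04 CPM). Skeletal muscle genes summed to 0.945 to 10.4 CPM under vehicle and 1.12 to 290.5 CPM under evexomostat, where the highest value was in replicate 005 and the next was 36.5 CPM. None of the tested markers in these lists passed the adjusted threshold, although all 3 tested muscle genes (ACTA1, MYH2 and MYH4) were higher at an unadjusted p under 0.05. The muscle genes of the list that were not tested, TNNT3, CKM and MYLPF, had at most 10, 10 and 7 counts in any library. Fibroblast genes summed to 397 to 2057 CPM under vehicle and 494 to 1068 CPM under evexomostat. Most of this was collagen: over the 11 libraries COL3A1 averaged 591 CPM, COL1A1 166 and COL1A2 42.9. PDGFRB averaged 26.7 CPM, while PDGFRA, LUM and DCN averaged 1.48, 1.04 and 0.39 CPM. Macrophage and leukocyte genes summed to 44.8 to 91.1 CPM under vehicle and 59.4 to 68.8 CPM under evexomostat. CD68 averaged 38.7 CPM and ITGAM 23.6, while PTPRC, TYROBP, CSF1R, CD163 and MRC1 averaged 2.23, 1.63, 1.56, 0.44 and 0.42 CPM. Of these 7 genes, 1 was lower at an unadjusted p under 0.05 in edgeR. The part of host cells in the results below was not tested. In bulk tumour RNA, fewer cells of a type and less RNA per cell cannot be told apart.

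STARD4 was the member that passed the test between the groups. It was lower in all 5 evexomostat libraries than in any vehicle library, by 2.13-fold. The other 31 genes did not pass the test, although most had lower means under evexomostat. In simulated counts the same test called 37.9% of 2-fold and 4.55% of 1.5-fold changes. Not passing therefore does not show that a gene was unchanged. In edgeR's quasi-likelihood test across 16653 genes, 1 of 32 cholesterol genes had an adjusted p-value under 0.05, beside 0.606% of all genes tested, or 101 genes (29 higher, 0.174%, and 72 lower, 0.432%). With upper quartile scaling the split over all genes was 28 higher and 42 lower. At an unadjusted p under 0.05, 10 cholesterol genes were lower and 0 higher, beside 8.55% of all genes lower and 4.82% higher. The fold change was below 0 in 30 of 32 cholesterol genes, beside 55.4% of all genes, and the median log2 fold change was -0.38, beside -0.04 over all genes. The list was chosen with earlier results of these data known, so these counts describe it and are not independent evidence of its direction.

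**Figure D1:**
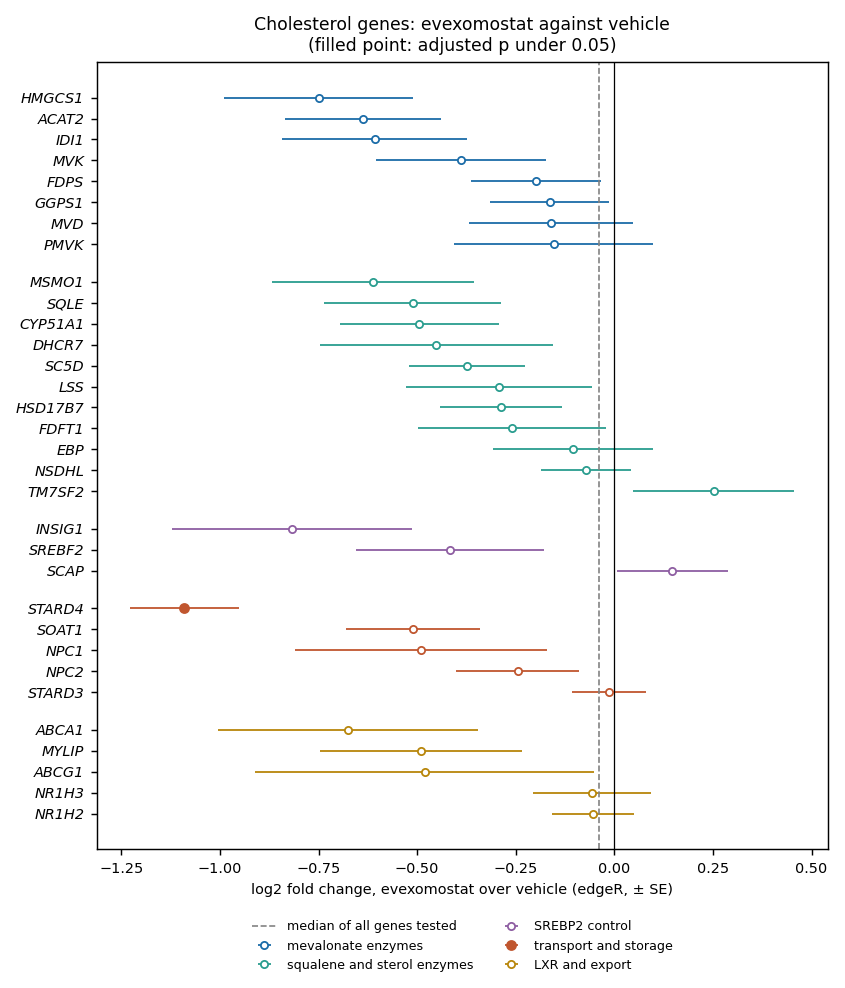
Log2 fold change of evexomostat over vehicle (horizontal axis, edgeR, bars ± SE) for the 32 cholesterol genes, grouped by role; a filled point has an adjusted p under 0.05 and the dashed line is the median of all genes tested. STARD4 is the filled point at -1.09, and the points of TM7SF2 and SCAP lie above 0.

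STARD4 encodes a soluble START-domain protein that carries cholesterol between membranes, among them the plasma membrane, recycling endosomes and the endoplasmic reticulum, and its gene is a known SREBP2 target. In the vehicle libraries it ranged from 32.7 to 49.3 CPM with a median of 43.8. In evexomostat replicates 002, 003, 004, 005 and 007, the order kept below, it was at 18.8, 18.3, 22.3, 17.98 and 22.3 CPM. The groups did not overlap, as held for 1.64% of all genes in the lower direction (0 members and 1.33% of all genes in the higher direction), and the evexomostat libraries lay within a narrow range. Group means were 42.5 ± 6.40 CPM (SD, n = 6) and 19.9 ± 2.18 CPM (SD, n = 5), and the log2 fold change was -1.09 (± 0.14 SE, adjusted p 0.0138 in edgeR). Without evexomostat replicate 002 the adjusted p in edgeR was 0.0525 and without replicate 005 it was 0.0558, with log2 fold changes of -1.07 and -1.05. Leaving out evexomostat replicate 003, 004 or 007 gave edgeR adjusted p-values of 0.0314, 0.0351 and 0.0445. The lowest vehicle value was in replicate 001, and leaving that library out gave -1.15 (adjusted p 0.000916 in edgeR). In the authors' deposited table STARD4 had a log2 fold change of -1.002 and an adjusted p of 0.000335, and it was the 1 cholesterol gene past 0.05 there, beside 0.952% of all its genes. STARD4 was also the 1 member called with DESeq2, which called 3.90% of all genes, and in a blocked fit on 8 libraries, which called 0.645%.

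The fall of STARD4 was set beside the level of the synthesis enzymes in the same library, a comparison chosen after the values were seen. In evexomostat replicate 002 the mean of the 19 enzymes, as log2 CPM relative to each gene's mean over the 11 libraries, was 0.04, within the vehicle range of -0.17 to 0.46. STARD4 on the same scale was at -0.67 in that library, below the lowest vehicle value of 0.13. In evexomostat replicate 003 the enzymes were lowest of all libraries at -0.57, and STARD4 was at -0.70. STARD4 was thus at a similar level in the evexomostat libraries with the highest and the lowest enzyme means. In evexomostat replicates 004, 005 and 007 STARD4 was at -0.42, -0.73 and -0.42, with enzyme means of -0.15, -0.17 and -0.01. In vehicle replicates 001 and 003 to 007 STARD4 was at 0.13, 0.72, 0.50, 0.60, 0.32 and 0.68. The enzyme means there were 0.24, 0.25, -0.01, 0.46, -0.17 and 0.09. Whether STARD4 followed the enzymes in either group was not tested.

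Promoter windows are shown for STARD4, for HMGCS1 and MSMO1 as synthesis enzymes whose means were also lower, for SREBF2 as the controlling factor and for ABCA1 as an LXR target, to let the letters of genes with opposite sterol responses be compared. They are from RefSeq on GRCh38.p14, not the build named for the counts, and run from 250 bases before the annotated start to the base before it. They lie at chr5:111512536-111512785, minus strand for STARD4, chr5:43313413-43313662, minus strand for HMGCS1, chr4:165327419-165327668, plus strand for MSMO1, chr22:41832855-41833104, plus strand for SREBF2 and chr9:104928156-104928405, minus strand for ABCA1. Capitals mark the NF-Y box CCAAT on either strand and the sterol regulatory element TCACNCCAC on either strand.
STARD4: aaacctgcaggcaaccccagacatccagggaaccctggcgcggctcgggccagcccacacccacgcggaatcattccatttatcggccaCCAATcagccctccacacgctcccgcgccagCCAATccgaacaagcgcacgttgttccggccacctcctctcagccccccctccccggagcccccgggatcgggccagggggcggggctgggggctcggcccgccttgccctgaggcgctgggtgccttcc
HMGCS1: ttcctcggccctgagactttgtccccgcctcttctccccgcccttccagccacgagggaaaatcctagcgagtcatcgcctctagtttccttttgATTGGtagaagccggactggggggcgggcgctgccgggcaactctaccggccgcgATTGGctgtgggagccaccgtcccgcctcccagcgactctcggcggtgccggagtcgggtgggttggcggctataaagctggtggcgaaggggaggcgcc
MSMO1: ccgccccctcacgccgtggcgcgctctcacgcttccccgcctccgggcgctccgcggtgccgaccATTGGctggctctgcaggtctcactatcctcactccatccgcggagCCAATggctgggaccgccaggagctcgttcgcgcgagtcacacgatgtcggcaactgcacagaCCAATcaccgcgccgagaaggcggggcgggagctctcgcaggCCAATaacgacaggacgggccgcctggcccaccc
SREBF2: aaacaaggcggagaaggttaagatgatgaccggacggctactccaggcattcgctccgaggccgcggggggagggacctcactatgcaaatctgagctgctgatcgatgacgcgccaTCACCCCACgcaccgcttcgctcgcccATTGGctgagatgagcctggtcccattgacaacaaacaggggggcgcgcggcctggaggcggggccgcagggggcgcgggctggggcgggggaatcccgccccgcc
ABCA1: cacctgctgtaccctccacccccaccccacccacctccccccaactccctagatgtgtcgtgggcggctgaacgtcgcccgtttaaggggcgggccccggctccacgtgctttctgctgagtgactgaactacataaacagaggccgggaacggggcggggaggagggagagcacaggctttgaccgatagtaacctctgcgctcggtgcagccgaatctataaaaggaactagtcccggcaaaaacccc
STARD4 held 2 NF-Y boxes, at bases -161 to -157 and -130 to -126, where -1 is the base before the start. MSMO1 held 4 NF-Y boxes and the ABCA1 window held none. Among genes not shown, the LXR target MYLIP held NF-Y boxes at -109 to -105 and -68 to -64. The synthesis enzymes CYP51A1 and PMVK held none. The windows shown therefore do not stand for all genes of either sterol response. SREBF2 held the sterol regulatory element at -133 to -125 and an NF-Y box at -106 to -102. NF-Y is a CCAAT-binding factor known to act with SREBP at sterol-regulated promoters. RefSeq windows, which run on to 50 bases past the start for this count, were matched for 28 of the 32 genes, with 39 windows in all, and ABCG1, ACAT2, FDFT1 and SQLE were not matched. CCAAT was found in 23 of 39 windows (59.0%), beside 34.6% of 35116 windows of the same length, in 21 of the 28 genes. The GC box GGGCGG was in 34 of 39 windows (87.2%), beside 44.95%. TCACNCCAC was in 1 of 39 windows, that of SREBF2, beside 1.13%. Only these exact letters were searched, with N as any base, so a window without a match may hold an element that differs from them. All motifs were searched on both strands, hits of different motifs overlapped 0 times, and a match is a description of letters only.

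None of the 8 mevalonate enzymes passed the test, and all 8 had fold changes below 0, with a median log2 fold change of -0.29. HMGCS1, the synthase that makes HMG-CoA, was at 67.7 to 146 CPM under vehicle (median 80.5) and at 77.1, 34.3, 51.2, 52.6 and 60.4 CPM under evexomostat. Evexomostat replicate 002 overlapped the vehicle libraries and the other 4 lay below them. The log2 fold change was -0.75 (± 0.24 SE, adjusted p 0.188 in edgeR). ACAT2, which makes the acetoacetyl-CoA used by HMGCS1, ranged from 34.0 to 60.6 CPM (median 42.4), against 33.5, 17.4, 28.7, 28.3 and 35.7 CPM. Only replicate 007 of the evexomostat libraries reached the vehicle range, and the log2 fold change was -0.64 (± 0.20 SE, adjusted p 0.174 in edgeR).

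IDI1, the isomerase of isopentenyl diphosphate, was at 61.5 to 118 CPM under vehicle (median 85.3) and at 75.1, 29.6, 60.9, 55.7 and 63.8 CPM under evexomostat. Replicates 002 and 007 overlapped the vehicle libraries, and the log2 fold change was -0.61 (± 0.23 SE, adjusted p 0.276 in edgeR). MVK, the first kinase of mevalonate, had a log2 fold change of -0.39, FDPS, the farnesyl diphosphate synthase, -0.20 and GGPS1, the geranylgeranyl diphosphate synthase, -0.16, all with edgeR adjusted p-values of 0.469 to 0.711. Single libraries moved these values: MVK was at -0.22 without vehicle replicate 005, FDPS at -0.0765 without evexomostat replicate 003 and GGPS1 at -0.0498 without vehicle replicate 001. PMVK and MVD, which phosphorylate and decarboxylate the mevalonate phosphates, had log2 fold changes of -0.15 and -0.16. Both had their highest vehicle value in replicate 001, at 121 and 74.8 CPM, and without that library the log2 fold changes were 0.18 for PMVK and 0.02 for MVD.

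Of the 11 enzymes from squalene to cholesterol, none passed the test, and 10 had fold changes below 0 (median log2 fold change -0.29). SQLE, squalene epoxidase and a rate-limiting step, ranged from 94.0 to 175 CPM under vehicle (median 142) and was at 145, 54.6, 93.2, 92.5 and 96.9 CPM under evexomostat. Replicates 002 and 007 of the evexomostat libraries fell within the vehicle range, and the log2 fold change was -0.51 (± 0.22 SE, adjusted p 0.337 in edgeR). CYP51A1, the lanosterol demethylase, was at 59.7 to 117 CPM (median 78.0), against 71.4, 35.6, 55.6, 58.6 and 61.9 CPM. Here too replicates 002 and 007 overlapped the vehicle libraries (log2 fold change -0.49 ± 0.20 SE, adjusted p 0.300 in edgeR).

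MSMO1, the sterol C4-methyl oxidase, had a wide spread under vehicle, from 20.8 to 62.3 CPM (median 37.6), and was at 38.4, 17.1, 24.3, 24.7 and 25.3 CPM under evexomostat. Only replicate 003 lay below all vehicle libraries, and the log2 fold change was -0.61 (± 0.26 SE, adjusted p 0.315 in edgeR). SC5D, the sterol C5-desaturase, was at 23.4 to 36.9 CPM (median 26.8) and at 24.7, 17.2, 20.8, 24.5 and 21.9 CPM. Its log2 fold change was -0.37 (± 0.15 SE, adjusted p 0.285 in edgeR), with replicates 002 and 005 inside the vehicle range.

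The other enzymes of the squalene and sterol steps had smaller differences or wider spread. DHCR7, which makes cholesterol from its 7-dehydro precursor, had a log2 fold change of -0.45 (SE 0.29), LSS, the lanosterol synthase, -0.29 (SE 0.24) and FDFT1, the squalene synthase, -0.26 (SE 0.24). Without evexomostat replicate 003 DHCR7 was at -0.29 and FDFT1 at -0.11, and LSS was at -0.19 without vehicle replicate 005 and at -0.44 without vehicle replicate 001. LSS and DHCR7 were lowest of the vehicle libraries in replicate 001, at 58.4 and 23.3 CPM. HSD17B7, a 3-ketosteroid reductase, had a log2 fold change of -0.29, EBP, the sterol isomerase, -0.10 and NSDHL, the C4-decarboxylase, -0.07. EBP reached 144 CPM in vehicle replicate 001, which left a log2 fold change of 0.12 when that library was dropped. TM7SF2, a sterol C14-reductase, had the highest fold change of the 32 genes, at a log2 fold change of 0.25 (± 0.20 SE, adjusted p 0.659 in edgeR), from 6.83 ± 1.27 CPM (SD, n = 6) to 8.15 ± 2.00 CPM (SD, n = 5).

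Among the SREBP2 control genes, INSIG1, itself a known SREBP2 target that retains SCAP in the endoplasmic reticulum, had the largest difference and did not pass the test. It ranged from 80.9 to 213 CPM under vehicle (median 119), and was at 124, 41.7, 62.2, 69.9 and 73.6 CPM under evexomostat. All evexomostat libraries except replicate 002 lay below the vehicle range, and the log2 fold change was -0.82 (± 0.30 SE, adjusted p 0.256 in edgeR). SREBF2, which encodes SREBP2, was at 84.1 to 244 CPM (median 207), against 173, 101, 148, 140.1 and 163 CPM. The lowest vehicle value was in replicate 001, and every other vehicle library was above all evexomostat libraries, at 182 CPM or more. With all libraries its value was -0.42 (± 0.24 SE, adjusted p 0.485 in edgeR). Without vehicle replicate 001 it came to -0.57 (edgeR adjusted p 0.0438), in a comparison where 5.22% of all genes passed. Quality weights in limma called HMGCS1 beside STARD4, with 6.36% of all genes, and leaving out vehicle 001 and evexomostat 003 together called SREBF2 beside STARD4, with 3.90%. The 8 libraries with shared replicate numbers, fitted without a block, called 6 members (HMGCS1, LSS, MSMO1, SREBF2, INSIG1 and STARD4) and 4.42% of all genes. SCAP, the escort protein, had a log2 fold change of 0.15 (± 0.14 SE, adjusted p 0.726 in edgeR).

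**Figure D2:**
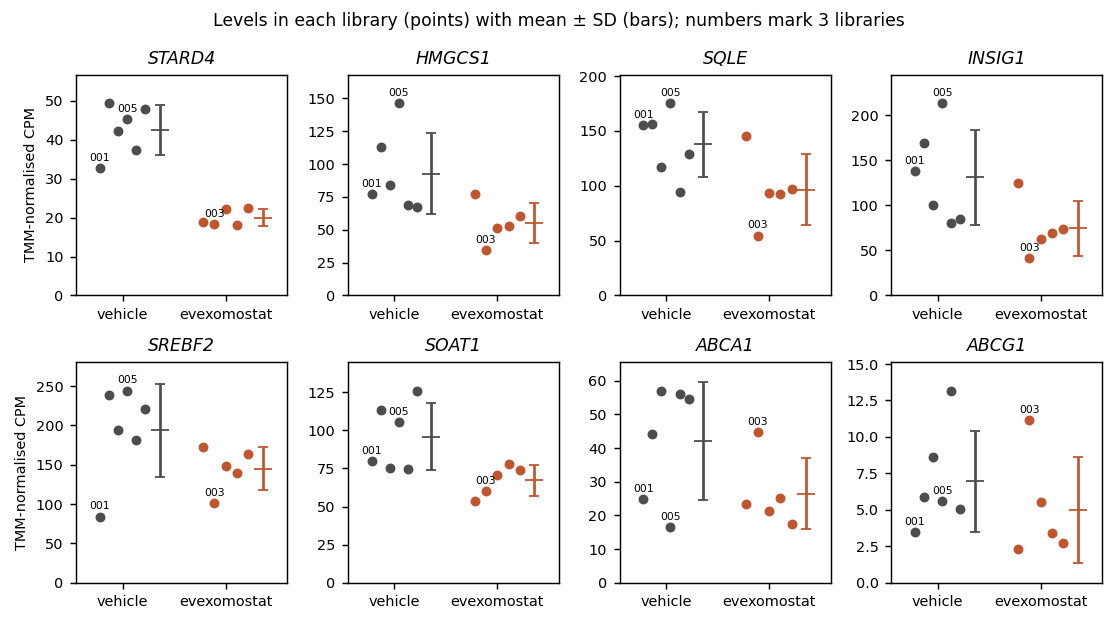
TMM-normalised CPM (vertical axes, from 0) of 8 cholesterol genes in each library (points), with the mean ± SD of 6 vehicle and 5 evexomostat libraries beside them; vehicle 001 and 005 and evexomostat 003 are numbered. STARD4 does not overlap between the groups, vehicle 001 is the lowest vehicle library for SREBF2, and evexomostat 003 is low for HMGCS1 and INSIG1 and high for ABCA1 and ABCG1.

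Of the other transport and storage genes, none passed the test. SOAT1, which esterifies cholesterol for storage in lipid droplets, was at 74.8 to 126 CPM under vehicle (median 92.6) and at 53.6, 60.1, 70.5, 77.9 and 74.0 CPM under evexomostat. Replicate 005 overlapped the vehicle libraries and the other 4 lay below them (log2 fold change -0.51 ± 0.17 SE, adjusted p 0.207 in edgeR). NPC1, the late endosomal membrane protein that passes on cholesterol taken up with lipoproteins, ranged from 34.0 to 139.5 CPM (median 90.8), against 90.4, 38.8, 52.4, 73.3 and 76.4 CPM. The evexomostat values all lay within the vehicle range, whose lowest value was again in replicate 001 (log2 fold change -0.49 ± 0.32 SE, adjusted p 0.564 in edgeR). NPC2, its soluble partner in the lumen, had a log2 fold change of -0.25 (± 0.16 SE, adjusted p 0.550 in edgeR). Without vehicle replicate 006 it was -0.14.

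STARD3 encodes a START-domain protein of late endosomes that tethers them to the endoplasmic reticulum. Under vehicle it was at 39.5 to 46.1 CPM (median 43.6) and under evexomostat at 42.5, 43.3, 43.0, 40.9 and 45.001 CPM. Its groups overlapped fully, with means of 43.4 ± 2.14 CPM (SD, n = 6) and 42.9 ± 1.49 CPM (SD, n = 5). The log2 fold change was -0.01 (± 0.09 SE, adjusted p 0.974 in edgeR), and it was 0.03 with upper quartile scaling. STARD4 and STARD3 carry the same kind of sterol-binding domain, and in these tumours the first differed between the groups while the second had the log2 fold change nearest 0 of the 32 genes.

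The LXR targets did not pass the test. ABCA1, which exports cholesterol to lipid-poor apolipoproteins, was at 16.4 to 57.0 CPM under vehicle (median 49.3) and at 23.3, 44.7, 21.3, 25.2 and 17.6 CPM under evexomostat. Vehicle replicates 001 and 005 were low and evexomostat replicate 003 was high, so the groups overlapped (log2 fold change -0.68 ± 0.33 SE, adjusted p 0.402 in edgeR). ABCG1, which exports cholesterol to HDL particles, was at 3.49 to 13.2 CPM (median 5.74), against 2.30, 11.1, 5.51, 3.41 and 2.74 CPM. Its log2 fold change of -0.48 (adjusted p 0.699 in edgeR) became -1.002 when evexomostat replicate 003 was left out, -0.30 when evexomostat replicate 002 was, and -0.20 when vehicle replicate 006 was, and passed in none of these fits. MYLIP, a ligase that marks lipoprotein receptors for breakdown, was at 4.64 to 10.9 CPM (median 7.44) and at 3.82, 8.06, 5.36, 4.73 and 4.42 CPM (log2 fold change -0.49 ± 0.26 SE, adjusted p 0.440 in edgeR). The receptors themselves differed less, with log2 fold changes of -0.05 for NR1H2 (SE 0.10) and -0.06 for NR1H3 (SE 0.15).

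Within each group, libraries with low enzyme means tended to have a high mean of ABCA1, ABCG1 and MYLIP. This order was described after the values were seen and given no test. Evexomostat replicate 003 was the lowest of its group for 16 of 19 enzymes and the highest for all 3 LXR targets. Replicate 002 was the highest of its group for 12 of 19 enzymes and the lowest for 2 of the 3 targets. Among vehicle libraries, replicate 005 was the highest for 13 of 19 enzymes, and its mean of the LXR targets was lowest, at -0.34 on the log2 scale relative to the mean of all libraries. Vehicle replicate 006, the lowest for 7 of 19 enzymes, had the highest LXR target mean of all libraries, at 0.89. The single targets were less uniform among vehicle libraries. Replicate 005 was lowest only for ABCA1 and replicate 006 highest only for ABCG1. Vehicle replicate 001 was lowest for ABCG1 and highest for MYLIP. The evexomostat libraries other than 003 had LXR target means of -0.77 to -0.23 with enzyme means of -0.17 to 0.04. Vehicle replicates 004 and 006, with enzyme means of -0.01 and -0.17, had LXR target means of 0.58 and 0.89.

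**Figure D3:**
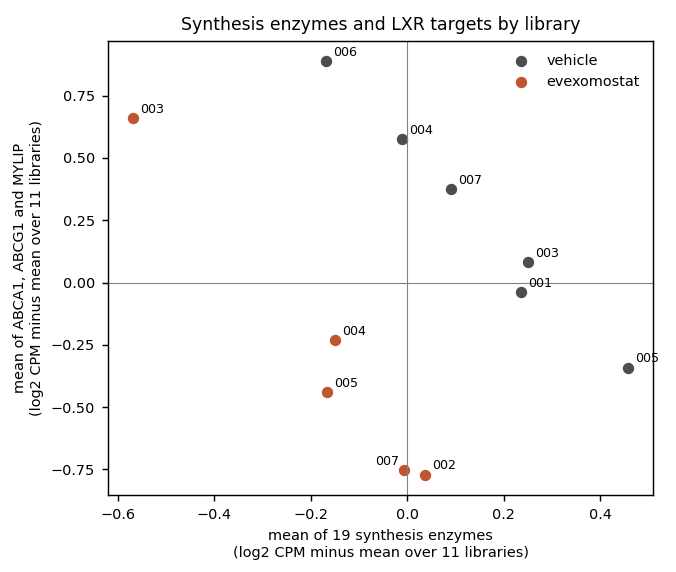
Mean of the 19 synthesis enzymes (horizontal axis) and mean of ABCA1, ABCG1 and MYLIP (vertical axis) in each of 11 libraries, both as log2 CPM minus each gene's mean over the libraries; points are libraries numbered by replicate. The vehicle points run from 006 at upper left to 005 at lower right, and the evexomostat points run from 003 to 002 below and to the left of them.

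The number of enzymes below the vehicle median was 16 of 19 in evexomostat replicates 003 and 004, 17 in 005, 13 in 007 and 12 in 002, beside 49.4%, 49.7%, 49.5%, 50.2% and 50.4% of all genes in the same libraries. The number below every vehicle library was 13, 7, 5, 2 and 3 of 19, beside 14.7%, 8.57%, 8.42%, 11.9% and 13.2% of all genes. By the second count replicates 007 and 002 were near the share of all genes, and replicate 003 was farthest from it. Without evexomostat replicate 003 the median log2 fold change of the 32 genes was -0.30, without vehicle replicate 005 it was -0.27, and without vehicle replicate 001 it was -0.37, beside medians of -0.04, -0.04 and -0.00245 over all genes. The 10 members with a lower mean at an unadjusted p under 0.05 became 6 without vehicle replicate 005 (8.24% of all genes lower) and 6 without evexomostat replicate 004 (6.91%). They became 14 without vehicle replicate 001 (13.5%) and 18 with quality weights (13.5%). Of the 32 genes, 25 were below 0 in the authors' deposited table, where the share of all genes below 0 was not counted. NSDHL, EBP, STARD3, NR1H2 and NR1H3 were below 0 in the main fit and above 0 there. Their deposited log2 fold changes were 0.02, 0.01, 0.08, 0.04 and 0.04.

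**Figure D4:**
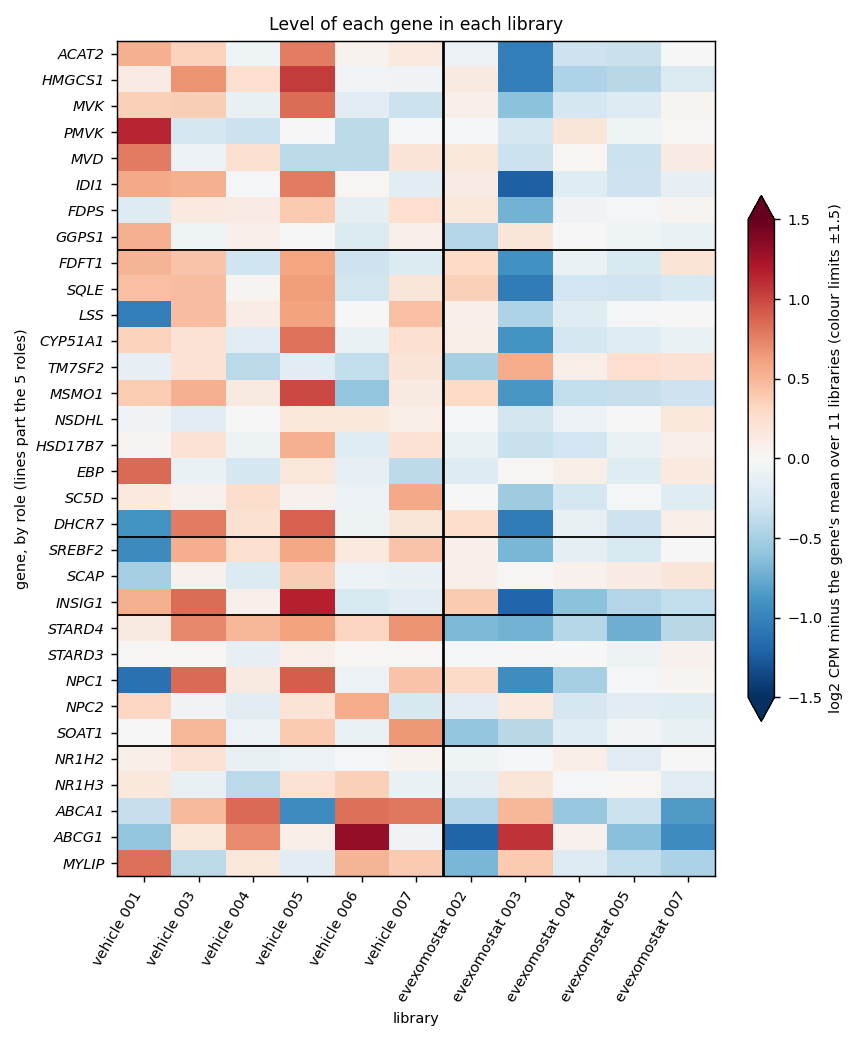
Level of the 32 cholesterol genes (rows, parted by role) in 6 vehicle and 5 evexomostat libraries (columns), as log2 CPM minus the gene's mean over 11 libraries, with colours limited at ±1.5. STARD4 is low in all 5 evexomostat libraries, evexomostat 003 is low for 16 of 19 enzymes within its group, and vehicle 001 goes against the other vehicle libraries in LSS, DHCR7, SREBF2 and NPC1.

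Vehicle replicate 001 was the lowest vehicle library for 8 members, with exon lengths of 1.65 to 5.54 kb (median 4.85 kb), and the highest for 5, with exon lengths of 1.28 to 3.10 kb (median 1.82 kb), against a median of 3.06 kb over all 32. Such counts did not set it apart, since vehicle replicate 006 was lowest for 9 members and replicate 005 highest for 18. The part of length or RNA quality in these differences was not tested.

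Compared per kilobase of exon, so that genes could be ranked, the most abundant members under vehicle were FDPS (56.1 CPM per kb), EBP (47.8), PMVK (47.0), SQLE (46.3) and INSIG1 (42.5). EBP and PMVK were highest in vehicle replicate 001, and without it the order was FDPS (58.3 CPM per kb), SQLE (45.2), INSIG1 (42.1), EBP (41.1), SREBF2 (40.2) and PMVK (37.5). The least abundant were ABCG1 (1.53), MYLIP (2.45), ABCA1 (3.74) and TM7SF2 (3.97), and STARD4 was at 7.66 CPM per kb. The synthesis enzymes other than TM7SF2 were thus at 7.95 CPM per kb or more, above the LXR targets.

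Genes around the pathway were read from 5 further lists of 72 genes, of which 70 were tested and none passed the threshold in either direction. For SREBP processing and sterol-regulated degradation, 8 of 14 genes had fold changes below 0 (median log2 fold change -0.07). The largest difference there was in C12orf49, which encodes a cofactor of SREBP cleavage also called SPRING1, at a log2 fold change of -0.56 (± 0.25 SE, adjusted p 0.345 in edgeR), and INSIG2, the paralog of INSIG1, was at -0.41 (edgeR adjusted p 0.519), or -0.12 without vehicle replicate 007. Among electron donors and partners of the sterol enzymes, 8 of 10 were below 0 (median -0.05). PGRMC1, a haem protein that binds CYP51A1, was at 157 to 264 CPM under vehicle and 137 to 153 CPM under evexomostat, without overlap, and did not pass the test (log2 fold change -0.47 ± 0.15 SE, adjusted p 0.169 in edgeR). POR, which supplies electrons to CYP51A1 and SQLE, had a log2 fold change of -0.76 (± 0.25 SE, adjusted p 0.194 in edgeR).

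The isoprenoid branch, which leads from FDPS and GGPS1 to dolichol, ubiquinone and prenylated proteins, had 8 of 13 genes below 0 (median -0.08). Its smallest p-values were in TRIT1, a tRNA isopentenyl transferase (log2 fold change 0.20), and NUS1, a subunit of the dolichol synthase (-0.20), with edgeR adjusted p-values of 0.485 and 0.558. Of 20 tested genes of sterol transfer and ester turnover, 15 were below 0 (median -0.14). SCARB1, the HDL receptor for selective cholesterol uptake, was at 80.4 to 239.5 CPM under vehicle and 73.8 to 99.5 CPM under evexomostat (log2 fold change -0.87 ± 0.26 SE, adjusted p 0.153 in edgeR). GRAMD1A, which moves cholesterol from the plasma membrane to the endoplasmic reticulum, had a log2 fold change of -0.49 (edgeR adjusted p 0.326). Without vehicle replicate 001, where 5.22% of all genes passed, SCARB1 and GRAMD1A had edgeR adjusted p-values of 0.0289 and 0.00717, and POR and NCOA1 of 0.0494 and 0.0233. SCARB1 also passed with DESeq2 (0.0384) and with quality weights in limma (0.0257), as did NCOA1 (0.0280 and 0.0248). Of 13 tested oxysterol enzymes and LXR partners, 10 were below 0 (median -0.32), among them the coactivator NCOA1 (-0.43, edgeR adjusted p 0.156) and the LXR cofactor NRIP1 (-0.44, edgeR adjusted p 0.218).

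Fatty acid synthesis, which is governed mainly by SREBP1, was compared as the pathway most like this one. Of its 20 genes 17 were below 0 with a median log2 fold change of -0.46, and 1 of 20 passed the threshold, SCD, the stearoyl-CoA desaturase. SCD was at 241 to 679.8 CPM under vehicle (median 471) and at 254, 134, 180.1, 192 and 217 CPM under evexomostat, with a log2 fold change of -1.26 (± 0.26 SE, adjusted p 0.0494 in edgeR). Its groups overlapped through vehicle replicate 001, unlike those of STARD4, and leaving out any 1 library except vehicle replicate 001 put its edgeR adjusted p above 0.05, at 0.0529 to 0.147, with log2 fold changes of -1.37 to -1.13. On all 11 libraries the SCD call was also lost with relative log expression scaling (adjusted p 0.0505 in edgeR), upper quartile scaling (0.0527 in edgeR) and limma-voom (0.0599). The lists of cholesterol and fatty acid genes were not tested against each other.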

How the data were processed

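RNA was sequenced from 6 vehicle and 5 evexomostat tumours as paired reads of 150 bases on an Illumina HiSeq, per the labels' protocols. The submitters' processing notes name bcl2fastq 2.17, STAR 2.7.5c, featureCounts, Subread, edgeR, GRCh37 and hg19; the annotation, use of strand and handling of mouse reads are not given in the sources used here, so reads shared between a gene and a paralog, pseudogene or mouse ortholog could be miscounted. The authors deposited whole-number read counts per gene symbol, RPM (counts scaled to the column total, checked to a largest difference of 9.09e-13) and a comparison table with log2 fold changes, p-values and adjusted p-values, and group means as an RPM signal; its test and settings are not stated per the file headers.

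Columns were matched to samples by the code in the sample description and groups taken from titles. Genes were kept with filterByExpr (minimum count 10, total 15), leaving 16653, scaled with TMM and compared with edgeR 4.0.16 (R 4.3.3) by the quasi-likelihood F-test without covariates, two-sided, adjusted by Benjamini-Hochberg over all genes at 0.05. Standard errors are those implied by the F statistic. Alternatives used DESeq2 1.42.0 and limma 3.58.1. The fits were tested on simulated data with 200 changed genes, drawn at random from all genes tested. There edgeR called 85.3% of the 4-fold, 37.9% of the 2-fold and 4.55% of the 1.5-fold changes, and 3.37% of its calls were false. The smallest chi-square per degree of freedom of any library pair was 15.5, so none was a duplicate. At these depths 3 counts correspond to 0.0774 to 0.145 CPM, which covers counting error only. Exon lengths are unions of GENCODE release 29 protein-coding exons, an annotation other than the authors'.

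The members, lists and tests were chosen with earlier results of these data known. All members were accounted for; values in every library, or ranges for vehicle, were given for those with an unadjusted p under 0.05 and for 10 genes set by role (HMGCS1, SQLE, INSIG1, SREBF2, NPC1, STARD3, SOAT1, ABCA1, ABCG1 and MYLIP), 4 of which met both. Genes of the other lists were named where past the threshold, otherwise the 2 with the smallest p. Left out were gene set tests and any p for a score over the members.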

Additional observations from a re-analysis of the deposited data

Results flagged for a closer look

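For the 43 named genes, each group's extreme values were set against its range by Dixon's criterion, 86 groups in all. It picked out 10 values, where chance at 1 in 20 groups would pick about 4.3. The groups come from the same 11 libraries and are not independent, so 4.3 does not measure an excess. Of the 10 values, 6 were in vehicle replicate 001. In that library PMVK was at 121 CPM (41.6 to 54.9 in the other vehicle libraries), GGPS1 at 134 (80.5 to 97.7), EBP at 144 (60.8 to 89.7) and TRIT1 at 58.6 (40.2 to 45.6), all highest. It was lowest for GRAMD1A at 51.6 CPM (120.4 to 142) and NCOA1 at 27.3 CPM (35.2 to 38.3). In evexomostat replicate 003 NPC2 was at 89.3 CPM (67.4 to 72.0 in the other evexomostat libraries) and ABCA1 at 44.7 CPM (17.6 to 25.2). INSIG2 was at 74.8 CPM in vehicle replicate 007 (22.8 to 34.7) and at 35.0 CPM in evexomostat replicate 002 (26.5 to 28.6).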

How the results depend on the processing

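The alternative that left out vehicle 001 and evexomostat 003 together was chosen after seeing the data. STARD4 kept its direction in all 21 alternatives (log2 fold change -1.20 to -1.04) and its call in 19 of them, all but those without evexomostat replicate 002 or 005. Over all genes, 101 calls became 649 with DESeq2 (200 higher, 449 lower), 1059 with limma-voom quality weights (384 higher, 675 lower) and 652 without those libraries (224 higher, 428 lower), and upper quartile scaling gave 42 lower. Leaving out each library gave 1 to 865 calls, 1 to 328 higher and 0 to 537 lower; the fit that dropped evexomostat replicate 005 had the 0, beside 1833 genes at an unadjusted p under 0.05. The 1 cholesterol gene called became 2 with quality weights (HMGCS1 added) and 2 without both libraries (SREBF2 added), and ranged from 0 to 2 on leaving out each library; at 0, without evexomostat replicates 002 and 005, 10 and 8 members had an unadjusted p under 0.05. Members below 0 numbered 27 to 30, beside 49.1% to 57.2% of all genes.

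For numbers 003, 004, 005 and 007, which each group has, the pairing check gave correlations of -0.27, 0.07, 0.05 and -0.10 between deviations from the group means, so same-numbered tumours were not treated as pairs. With a replicate block on those 8 libraries, 107 genes and 1 cholesterol gene, STARD4, passed (log2 fold change -1.20). With no replicate block on the same 8 libraries 733 genes passed (225 higher, 508 lower), with 6 cholesterol genes among them. Blocked and unblocked values were 0.12 and 0.12 for PMVK, 0.16 and 0.15 for EBP, and 0.10 and 0.0902 for NR1H3.

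With quality weights and without both libraries, PMVK was at 0.22 and 0.22, MVD at 0.0562 and 0.0733 and EBP at 0.0853 and 0.0965; STARD3 was at 0.0316 with upper quartile scaling. Leaving out each library, PMVK ranged from -0.24 to 0.18, MVD from -0.24 to 0.0227, EBP from -0.18 to 0.12, STARD3 from -0.0397 to 0.0088 and NR1H3 from -0.13 to 0.0169. None of these passed the threshold. Leaving out 1 library moved the log2 fold change of 20 of the 43 named genes by over 1.5 times, none of them called with all libraries. Apart from PMVK, MVD, EBP, STARD3 and NR1H3, the named genes (38 of 43) kept their direction in every alternative. Some of those moved by over 1.5 times, such as MVK and LSS, are among the 38. The cause of these changes was not tested, beyond the fewer libraries.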
